A study of Homo sapiens with 3 samples.

Results

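The library described here came from H446 cells, a human small cell lung cancer line, kept for 48 h in medium with vehicle control. It is 1 of 3 libraries in the study. The others came from the same line after 48 h with 5 µM or 10 µM 3-bromoascochlorin (BAS), which derives from ascochlorin, a metabolite of fungi. All cells grew in the same serum-supplemented medium with antibiotics, and total RNA was read as single-end reads of 50 bases. Every one of the 16793 gene symbols of the vehicle library was included, out of the same 16793 in each library. There was 1 library per group, so no value has a replicate error and nothing was tested. Values are FPKM, fragments scaled to transcript length and to the number of mapped reads, a scale on which genes of different length can be compared. The files hold no counts, so the read depth is unknown and a gene at a low value cannot be given a counting error. In the treated files the value columns are headed ASB85 and ASB810 rather than BAS, and the doses given below rest on the labels.

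Small cell lung cancer is a neuroendocrine tumour that usually loses the tumour suppressor RB1. Its tumours and lines are sorted by the lineage regulator they express, among them NEUROD1 in neuroendocrine tumours, POU2F3 in tumours that resemble tuft cells, and YAP1 in tumours that have lost neuroendocrine features. Neuroendocrine tumours carry dense core granules, release peptides and share many genes with neurons. Variant lines, which grow more loosely or attach, often keep part of this programme and add MYC or mesenchymal genes.

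In the vehicle library, 11425 of 16793 symbols (68.0%) were at or above 1 FPKM, taken here as detected. The median symbol was at 5.5 FPKM, 604 symbols were listed at 0, and 2571 were under 0.1 FPKM. Of the 701 symbols in the 35 gene lists used below, 61.1% were detected, a smaller share than over all symbols. Each count of detected list members below is to be set beside the 68.0% of all symbols. The 75 symbols at or above 1000 FPKM held 30.49% of the summed FPKM. The 630 symbols from 100 to under 1000 FPKM held 29.6%, and 336 symbols were enough to reach the midpoint of the sum. Of the 16169 symbols that RefSeq names as protein-coding, 69.6% were detected, against 14.7% of 190 long noncoding RNA genes.

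**Figure D1:**
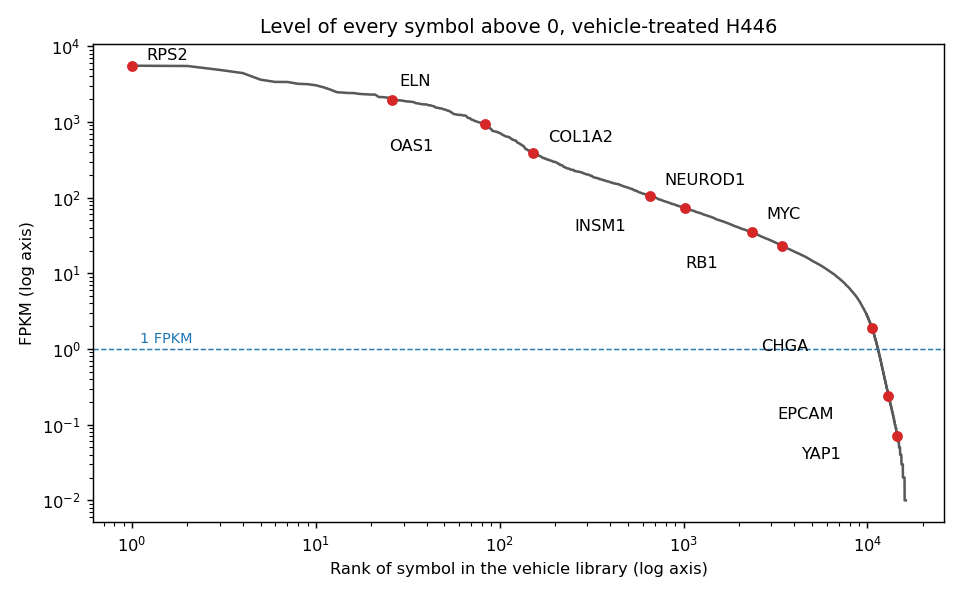
FPKM of every symbol above 0 in the vehicle library against its rank, both on log axes, with 11 genes marked in red and a dashed line at 1 FPKM. ELN and OAS1 lie within the 100 highest symbols, NEUROD1 lies at rank 657, and EPCAM and YAP1 lie below the line.

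Genes of protein synthesis led the library. Of the 30 highest symbols, 20 encode cytosolic ribosomal proteins, and the 87 symbols of that class together held 25.14% of the summed FPKM. RPS2 was first at 5536.66 FPKM, RPL41 at 4871.51 FPKM, and EEF1A1, the elongation factor that brings aminoacyl-tRNA to the ribosome, at 3158.41 FPKM. The 3 symbols MTRNR2L2, MTRNR2L8 and MTRNR2L9 were at 5488.94, 3194.72 and 2089.96 FPKM. These nuclear genes are near-identical to part of the mitochondrial 16S ribosomal RNA gene, so their reads cannot be told apart from mitochondrial ones. The other symbols among the 30 were GAPDH, EEF1A1, PPIA, ACTB, RACK1, TUBA1B and ELN. All but ELN are common to most growing cells, and TUBA1B shares 56.6% of its 50-base sequences with other genes.

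Messages of ribosomal proteins usually begin with a C followed by a run of pyrimidines, the terminal oligopyrimidine element through which mTOR controls their translation. The starts of 4 of the highest ribosomal protein genes are shown because this shared feature sits at the first transcribed base. Each line gives 10 bases before the RefSeq start (GRCh38.p14) and 15 bases from it, and capitals mark a C at the start base with at least 4 more C or T.
RPL35: cgcctacttcCTCTTTCCCTCggag
RPS6: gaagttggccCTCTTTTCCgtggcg
RPLP1: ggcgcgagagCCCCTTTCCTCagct
RPS15: aggcgcggaccaaagcgatctcttc
They lie at chr9:124861943-124861967 (minus strand), chr9:19380222-19380246 (minus), chr15:69452808-69452832 (plus) and chr19:1438386-1438410 (plus). RPL35 was at 3620.89 FPKM, RPS6 at 3375.57 FPKM, RPLP1 at 3050.54 FPKM and RPS15 at 3382.31 FPKM. RPS15 has no such run at its RefSeq start, and its level was like that of RPS6. Its printed line ends in a C followed by pyrimidines, and whether its transcripts begin there was not tested. Among 67 ribosomal protein genes with an entry, 43 (64.2%) had the run, against 4.9% of 12758 promoters and 18.7% of the promoters of symbols at or above 100 FPKM.

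Of 3 regulators measured that define small cell lung cancer subtypes, NEUROD1 stood alone. NEUROD1, a basic helix-loop-helix (bHLH) factor of neuronal and endocrine differentiation, was at 104.96, 93.15 and 91.62 FPKM in the vehicle, 5 µM BAS and 10 µM BAS library. YAP1, the coactivator of the Hippo pathway, was at 0.07 FPKM in vehicle, and both treated libraries list it at 0. POU2F3, the tuft cell regulator, was at 0.05, 0.07 and 0.01 FPKM. NEUROD1 was thus the highest of these genes in each library and the only one detected. YAP1 was above POU2F3 in vehicle and below it with BAS, all at values near 0. ATOH1 was not analysed here.

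The upstream sequence of NEUROD1 is shown because it has many CpG dinucleotides, the feature that below goes with the level of expression. The line gives 200 bases before the RefSeq start, at chr2:181680518-181680717 of GRCh38.p14, minus strand, with each CG in capitals.
NEUROD1: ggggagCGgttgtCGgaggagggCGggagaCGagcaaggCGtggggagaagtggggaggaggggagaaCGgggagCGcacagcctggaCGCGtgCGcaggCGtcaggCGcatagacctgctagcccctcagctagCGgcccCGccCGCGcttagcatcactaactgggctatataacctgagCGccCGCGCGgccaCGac
The window of 300 bases around the start holds 31 CpG. Its CpG ratio, the count of CG against that expected from its C and G content, was 0.901.

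Other bHLH factors were mostly low, and their partners were high. Of 12 proneural bHLH genes measured, 5 were detected. ATOH8 was at 94.21 FPKM, NEUROD2 at 26.33 FPKM, BHLHE22 at 5.38 FPKM and NHLH1 at 1.73 FPKM. NEUROG2 was at 0.81 FPKM, NEUROD4 at 0.24 FPKM, ATOH7 at 0.2 FPKM, and ASCL2 and OLIG3 at 0.16 FPKM each, with NHLH2 and OLIG2 listed at 0. By contrast, all 7 E protein and ID protein genes were detected. TCF3, an E protein that pairs with proneural factors on DNA, was at 121.23 FPKM. ID1, ID3 and ID2, which bind E proteins and keep them off DNA, were at 497.84, 217.78 and 66.6 FPKM. ID1 alone held 62.9% of the summed FPKM of the 4 ID genes.

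Further neuroendocrine transcription factors were detected in 15 of 26 cases (57.7%, against 68.0% of all symbols), with a median of 2.86 FPKM. POU4F1, a POU factor of sensory neurons, was at 101.29 FPKM with vehicle and at 69.87 and 65.66 FPKM with 5 and 10 µM BAS. INSM1, a zinc finger factor of neuroendocrine cells, was at 72.85, 81.79 and 95.14 FPKM. In vehicle POU4F1 was thus the higher of the pair, and at both doses INSM1 was. SOX4 was at 54.94 FPKM and ZIC2 at 44.31 FPKM. NKX2-1, the lung lineage factor, was at 5.22 FPKM and FOXA2, of foregut endoderm, at 0.02 FPKM, while LHX3 was listed at 0.

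**Figure D2:**
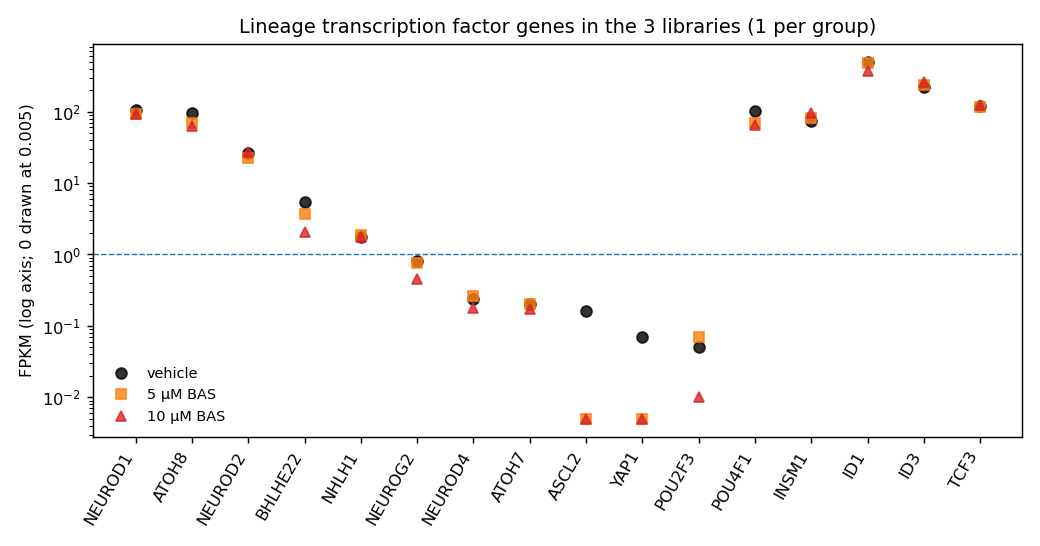
FPKM (log axis) of 16 lineage transcription factor genes in the vehicle (black circles), 5 µM BAS (orange squares) and 10 µM BAS (red triangles) library, with values of 0 drawn at 0.005 and a dashed line at 1 FPKM. NEUROD1, ATOH8, POU4F1, INSM1 and the ID genes lie far above the line in every library, and YAP1 and POU2F3 lie below it in every library.

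The granule and peptide genes were uneven. Of 17 dense core granule genes, 12 were detected (70.6%, near the 68.0% of all symbols), with a median of 2.4 FPKM. CPE and PAM, enzymes that trim and amidate peptides, were at 350.12 and 93.49 FPKM, SCG2 at 29.69 FPKM and SYT7 at 14.34 FPKM. CHGA (chromogranin A), the common clinical marker of neuroendocrine tumours, was at 1.91, 4 and 6.41 FPKM in the 3 libraries, and at rank 10581 in vehicle. CADPS2 was at 0.01 FPKM, and DDC, which decarboxylates the precursors of dopamine and serotonin, was listed at 0. The line's vehicle library thus held high levels of CPE and PAM beside a chromogranin A level under the library's median. Some other granule genes were also under that median, with PCSK1N at 3.49 FPKM, PCSK2 at 2.62 FPKM, PCSK1 at 2.4 FPKM and SCG5 at 0.08 FPKM. CHGB (chromogranin B) and SCG3 were above it, at 8.01 and 5.83 FPKM. Of the 17 genes, 6 were at or above 5 FPKM.

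Only 3 of 15 peptide and hormone genes were detected. NTS (neurotensin) was at 65.45 FPKM, NMB (neuromedin B) at 16.05 FPKM and NMU (neuromedin U) at 1.15 FPKM. UCN was at 0.78 FPKM and PDYN at 0.04 FPKM. CALCA, the calcitonin gene, was listed at 0.

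Synaptic and neuronal genes were detected about as often as symbols in general, 68.6 and 65.7% against 68.0%. Of 35 synaptic vesicle and release genes, 24 were detected, led by SNAP25, a fusion protein of the release machinery, at 105.79, 98.39 and 92.82 FPKM in the 3 libraries. SYPL1 was at 47.28 FPKM and SV2A at 38.79 FPKM, while SV2B and SV2C were at 0.08 and 0.04 FPKM. SYP (synaptophysin), another clinical marker, was at 17.3 FPKM. Of 35 neuronal cytoskeleton, adhesion and RNA-binding genes, 23 were detected. STMN1, which destabilizes microtubules, was at 603.58 FPKM, DPYSL3 at 219.89 FPKM and BEX1 at 122.85 FPKM. UCHL1, a neuronal ubiquitin hydrolase, was at 82.21 FPKM in vehicle and at 131.19 and 176.51 FPKM with 5 and 10 µM BAS. NCAM1 (CD56), the adhesion molecule used in diagnosis, was at 46.93 FPKM. Further neuronal genes of this list lay far apart. MAP1B was at 35.98 FPKM, ELAVL2 at 28.98 FPKM, TUBB3 at 20.46 FPKM and MAPT at 19.34 FPKM. At the low end, 8 of the list were under 0.1 FPKM, among them DCX, NEFL, ELAVL4 and CELF4 at 0.01, 0.05, 0.03 and 0 FPKM.

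Nicotinic receptor genes, a list added after values were seen, were led by the 3 neighbouring genes CHRNA5, CHRNA3 and CHRNB4. CHRNA3 was at 202.12 FPKM with vehicle and at 133.76 and 113.13 FPKM with 5 and 10 µM BAS. CHRNA5 was at 31.63 FPKM and CHRNB4 at 13.92 FPKM in vehicle. These subunits form the ganglionic receptor that nicotine binds, and the order of the 3 genes was the same in each library. CHRNA7 was at 0.91 FPKM and shares 84.7% of its 50-base sequences with other genes. Of 23 calcium and sodium channel genes, 10 were detected, among them CACNA2D1 at 10.15 FPKM, CACNB3 at 6.38 FPKM and CACNA2D2 at 5.26 FPKM. CACNA1F was listed at 0.

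The Notch pathway, which restrains neuroendocrine differentiation, was detected in 13 of 21 genes (61.9%, against 68.0% of all symbols). Among ligands, JAG2 was at 31.63 FPKM and JAG1 at 8.45 FPKM. DLL3, an inhibitory ligand that is a drug target in this tumour, was at 3.59 FPKM, and DLL1 and DLL4 were at 0.03 and 0.01 FPKM. Among receptors, NOTCH2 was at 21.88 FPKM and held 84.3% of the summed FPKM of the 4 receptors. Among downstream genes, HES6, which opposes HES1, was at 32.18, 49.37 and 68.7 FPKM in the 3 libraries, and HES1 at 10.74, 18.9 and 19.88 FPKM. HES6 was thus the higher of the pair in each library. REST, the repressor of neuronal genes, was at 4.7 FPKM.

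**Figure D3:**
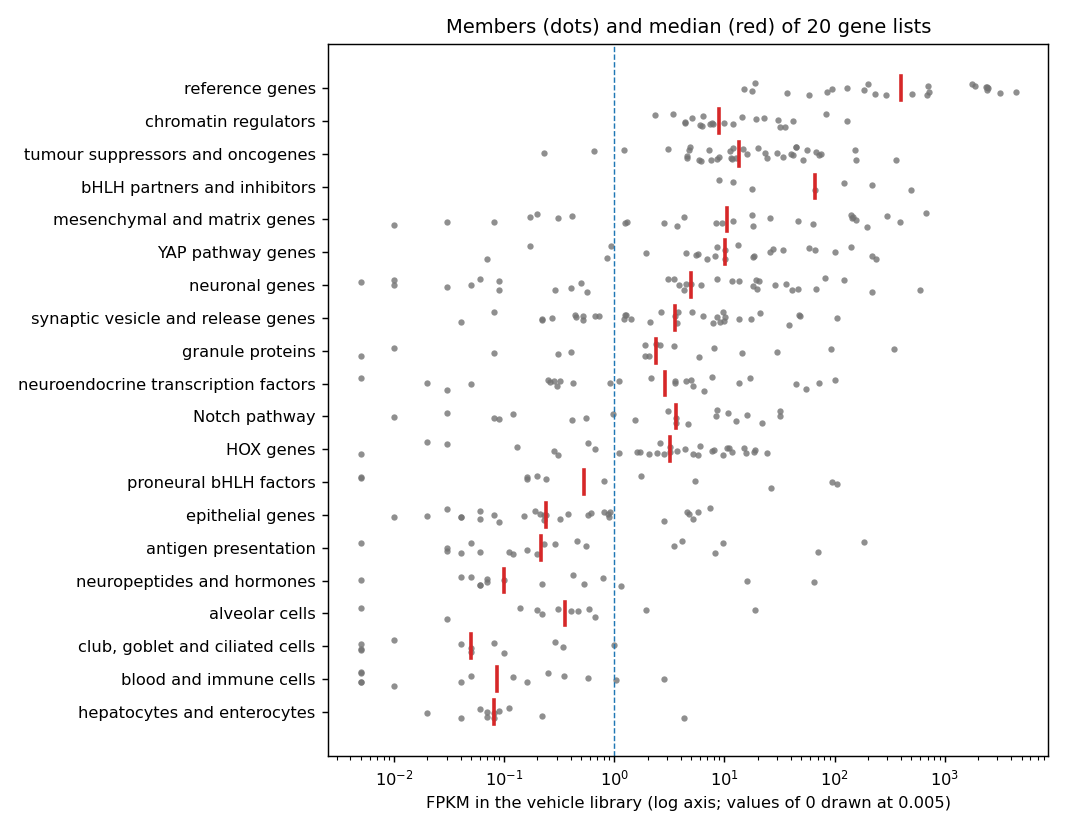
FPKM in the vehicle library (log axis, values of 0 drawn at 0.005) of the measured members of 20 gene lists, with 1 dot per gene, a red bar at each list's median and a dashed line at 1 FPKM. The median is 400.42 FPKM for reference genes and 10.63 FPKM for mesenchymal genes, and lies under the line for epithelial genes at 0.24 FPKM.

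Although YAP1 itself was under 0.1 FPKM, 21 of 25 genes of the YAP pathway and of non-neuroendocrine lines were detected. This was 84%, against 68.0% of all symbols, and the median of the list was 10.15 FPKM. WWTR1, which encodes the YAP1 paralog TAZ, was at 33.75 FPKM. TEAD2 and TEAD4, DNA-binding partners of both, were at 59.09 and 27.74 FPKM. LGALS1, ANXA2 and ANXA1 were at 235.65, 220.75 and 101.54 FPKM. ANKRD1, a known YAP and TAZ target, was at 139.64, 218.33 and 169.01 FPKM in the 3 libraries. CYR61, another target, was at 66.56, 168.9 and 162.78 FPKM, and was lowest in vehicle. CTGF, also a well-known target, was under the limit in vehicle, at 0.94, 1.93 and 2.44 FPKM. AXL, a receptor kinase of the same group, was at 0.17 FPKM.

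Several mesenchymal genes were high, and few epithelial genes were detected. Of 28 mesenchymal and matrix genes, 21 were detected (75%, near the 68.0% of all symbols), against 6 of 29 epithelial genes (20.7%). The median was 10.63 FPKM for the mesenchymal list and 0.24 FPKM for the epithelial list, where that of all symbols was 5.5 FPKM. At a limit of 0.5 FPKM these counts were 21 and 12. VIM (vimentin) was at 680.84 FPKM, COL1A2 at 389.39 FPKM, COL3A1 at 297.04 FPKM and FN1 (fibronectin) at 196.27 FPKM, while COL5A1 and COL4A1 were at 0.03 and 0.01 FPKM. Type I collagen is built from products of COL1A1 and COL1A2. COL1A1 was at 63.57, 85.84 and 98.52 FPKM and COL1A2 at 389.39, 412.4 and 370.87 FPKM, so that COL1A2 exceeded COL1A1 6.125-fold in vehicle, 4.804-fold at 5 µM and 3.764-fold at 10 µM. CDH1 (E-cadherin) was at 0.61 FPKM, EPCAM at 0.24 FPKM, OVOL1 at 0.02 FPKM and CDH3 at 0.01 FPKM. The 6 epithelial genes detected were TJP1, KRT7, KRT19, KRT8, OCLN and KRT18, between 2.83 and 7.33 FPKM.

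ELN (elastin), the rubber-like protein of elastic fibres, was the highest gene apart from those of protein synthesis, the MTRNR2L genes and common housekeeping genes. It was at 1976.1 FPKM with vehicle, rank 26, and at 2160.2 and 2309.1 FPKM with 5 and 10 µM BAS. MFAP4, a microfibril-associated protein that binds elastin, was at 721.94, 1153.3 and 1525.26 FPKM, rank 98 in vehicle. Both were high in every library, and MFAP4 was lowest in vehicle. Of 20 elastic fibre genes, a list added after values were seen, 14 were detected (70%, near the 68.0% of all symbols). The crosslinking enzymes LOXL1 and LOX were at 44.19 and 18.1 FPKM. The fibre scaffold gene FBN1 (fibrillin-1) was at 2.33 FPKM, FBLN5 at 3.15 FPKM and MFAP5 at 0.05 FPKM. The flanking genes of ELN in RefSeq order were much lower, with TMEM270 at 0.11 FPKM and LIMK1 at 13.86 FPKM.

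KRT15, a keratin of basal epithelial cells, was high alone among type I keratins. It was at 126.98 FPKM with vehicle and at 84.92 and 65.58 FPKM with 5 and 10 µM BAS. KRT10 was at 14.84 FPKM and KRT19, its neighbour, at 5.14 FPKM, and the neighbour on the other side, KRT13, was at 0.18 FPKM. KRT5, the usual companion of basal keratins, was at 0.15 FPKM.

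Most tumour suppressor and oncogene messages were present, 36 of 38. CDKN2A, whose products restrain CDK4 and MDM2 and which is often high where RB1 is inactive, was at 361.96 FPKM. RB1 itself was at 23.29 FPKM, and FPKM does not show whether its message is intact. TP73 was at 72.71, 48.92 and 46.02 FPKM in the 3 libraries, highest in vehicle. CDKN1A was at 155.92 FPKM, CDK4 at 152.42 FPKM and CDKN2C at 75.43 FPKM. At the low end, CCND1 (cyclin D1) was at 1.23 FPKM, CDKN1C at 0.65 FPKM and FHIT at 0.23 FPKM.

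All 10 measured genes of the MYC network were detected. MYC was at 35.07, 33.17 and 38.82 FPKM in the 3 libraries, and MYCL at 2.33, 3.16 and 3.78 FPKM. MYC was the higher of the pair in each, at 15.05 times MYCL in vehicle. MYCN was not analysed here. The obligate partner MAX was at 33.23 FPKM, MLX at 34.6 FPKM, MXI1 at 16.81 FPKM, MXD4 at 8.2 FPKM, MXD3 at 6.2 FPKM, MGA at 6.06 FPKM, MNT at 5.57 FPKM and MXD1 at 1.93 FPKM. All 22 chromatin regulators listed were also detected. KDM1A, a histone demethylase, led them at 130.45 FPKM, with DNMT1 at 83.33 FPKM, SMARCA4 at 41.51 FPKM and SMARCA2 at 35.36 FPKM. DNMT3B and TET1 were lowest, at 3.41 and 2.36 FPKM.

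Among targets of drugs used or tested in this tumour, 23 of 28 were detected. PARP1 was at 164.98 FPKM, TYMS at 108.73 FPKM, and TOP2A and TOP1, the topoisomerases hit by etoposide and by topotecan, at 107.12 and 62.52 FPKM. The efflux pump genes ABCB1 and ABCG2 were at 0.02 FPKM and listed at 0, while ABCC1, also an efflux pump gene, was at 7.72 FPKM. SLFN11 and MGMT were not analysed here. Of 32 BCL2 family and caspase genes, 26 were detected, led by BIRC5 at 54.59 FPKM, BAX at 51.82 FPKM, CYCS at 45.76 FPKM and MCL1 at 42.27 FPKM. CASP4 and TNFRSF10B were lowest, at 0.12 and 0.11 FPKM. Among survival proteins, MCL1 and BCL2L1 held 42.8 and 42% of the family's summed FPKM, and BCL2 2.5%.

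Among growth factor receptors, 19 of 36 receptor tyrosine kinase genes were detected (52.8%, against 68.0% of all symbols). FGFR1 was at 185.07 FPKM with vehicle and at 133.92 and 107.65 FPKM with 5 and 10 µM BAS, and held 84.3% of the summed FPKM of the 4 FGF receptors in vehicle. PTK7 was at 54.81 FPKM, DDR1 at 50.07 FPKM and RYK at 41.27 FPKM. EGFR was at 0.08 FPKM, NTRK2 at 0.01 FPKM, and RET was listed at 0. Among ligands, 16 of 29 were detected, led by HGF at 59.17 FPKM, NRTN (neurturin) at 51.73 FPKM, VEGFB at 34.2 FPKM and VEGFA at 6.45 FPKM, with IGF2 listed at 0. MET, the receptor of HGF, was at 6.22 FPKM, so both genes of that pair were detected. NRTN and RET, a ligand and the kinase through which it signals, were not both detected. KIT was not analysed here.

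Further receptors came from lists added after values were seen. EPHA3, an ephrin receptor, was at 174.47, 120.14 and 105.2 FPKM in the 3 libraries, highest in vehicle. NGFR, the low-affinity neurotrophin receptor, was at 80.84, 95.86 and 103.96 FPKM, lowest in vehicle. NTRK3 was at 31.37 FPKM. LY6H, in no list and chosen after its value was seen, is a brain member of the LY6 family that binds nicotinic receptors. It was at 746.36, 810.04 and 749.73 FPKM, rank 95 in vehicle.

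Antigen presentation genes were mostly under the limit, with 6 of 20 detected and a median of 0.22 FPKM. Among class I heavy chain genes, HLA-B was at 0.03, 0.03 and 0.28 FPKM, and HLA-C at 0.2, 0.11 and 0.45 FPKM. Neither of these was detected in any library. B2M, their light chain, was at 185.51 FPKM, HLA-E at 9.71 FPKM and TAPBP at 8.18 FPKM. TAP1, of the peptide transporter, was at 0.12 FPKM, HLA-DPA1 at 0.03 FPKM, and HLA-G was listed at 0.

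Among genes of nucleic acid sensing and interferon signalling, 18 of 23 were detected, and OAS1 stood far above the rest. OAS1 makes the 2′-5′ oligoadenylates of the antiviral response when double-stranded RNA is present. It was at 926.48 FPKM with vehicle, rank 83, and at 665.92 and 519.07 FPKM with 5 and 10 µM BAS. Its neighbours and relatives OAS3 and OAS2 were at 0.32 and 0.1 FPKM. The neighbour on the other side, RPH3A, which acts in vesicle release, was at 181.61, 138.49 and 112.1 FPKM. OAS1 and RPH3A were thus both highest in vehicle and lowest at 10 µM. Other interferon-induced genes were low, with ISG15 at 4.71 FPKM, MX1 at 0.27 FPKM and IRF7 at 0.03 FPKM. IFNGR2 was at 54.34 FPKM, JAK1 at 38.23 FPKM and IFNAR1 at 24.34 FPKM, while DHX58 and TLR3 were at 0.02 FPKM. CGAS and IFIH1 were not analysed here.

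The upstream sequences of OAS1 and OAS3 are shown because these neighbours share a GAAACGAAA motif but differ in CpG content and level. Each line gives 200 bases before the RefSeq start (GRCh38.p14, plus strand), at chr12:112906762-112906961 and chr12:112938274-112938473, with the motif in capitals.
OAS1: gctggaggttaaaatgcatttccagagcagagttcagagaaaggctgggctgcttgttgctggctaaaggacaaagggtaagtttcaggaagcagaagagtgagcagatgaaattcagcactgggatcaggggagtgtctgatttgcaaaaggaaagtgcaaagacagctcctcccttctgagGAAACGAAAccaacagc
OAS3: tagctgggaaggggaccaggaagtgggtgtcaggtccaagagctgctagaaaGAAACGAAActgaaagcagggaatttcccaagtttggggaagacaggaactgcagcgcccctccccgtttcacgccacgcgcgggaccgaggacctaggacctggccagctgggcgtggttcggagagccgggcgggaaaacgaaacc
The motif, searched on both strands and chosen after the OAS1 sequence was read, occurred in 0.2% of all 12758 promoters of 300 bases, and a match is a description, not a binding site. The OAS1 window of 300 bases held 1 CpG and the OAS3 window 20.

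Cancer-testis antigens, proteins normally limited to germ cells, ranged from over 100 FPKM to 0. Of 25 measured, 15 were detected and 13 of these were at or above 10 FPKM. CTAG2 was at 161.06 FPKM, GAGE2A at 112.44 FPKM, MAGED1, which is also expressed widely outside the testis, at 106.77 FPKM and MAGEA3 at 79.85 FPKM. In between, GAGE1 was at 8.26 FPKM, GAGE12D at 2.11 FPKM and XAGE2 at 0.25 FPKM. PRAME and SSX1 were listed at 0. GAGE2A shares 85.2% and MAGEA3 56.2% of their 50-base sequences with other genes, and CTAG1A and CTAG1B were both at 44.88 FPKM, so the levels of such copies are uncertain. HOX genes, which mark position along the body axis, were detected in 25 of 33 cases (75.8%, against 68.0% of all symbols). The highest were HOXB2 at 24.53 FPKM, HOXB3 at 18.77 FPKM, HOXA10 at 18.59 FPKM and HOXA7 at 15.85 FPKM. HOXB9 was at 0.02 FPKM and HOXC11 was listed at 0.

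Families of enzymes and subunits were often held by 1 member. PKM held 100% of the summed FPKM of the pyruvate kinases to 1 decimal, COX4I1 99.9% of its subunit pair, EEF1A1 97.9% of eEF1A, ENO1 95.6% of the enolases and SLC16A1 95.4% of the monocarboxylate transporters. Others were shared: PFKP, PFKM and PFKL held 36.4, 32.8 and 30.8%, and SMARCA4 and SMARCA2 54 and 46%. LDHB, the lactate dehydrogenase subunit typical of heart, was at 758 FPKM and LDHA at 275.61 FPKM, so LDHB was 2.75 times LDHA. Among D-type cyclins, CCND3 held 59.2%, CCND2 35.1% and CCND1 5.7%. The leading member of each of these families was the same in all 3 libraries, except among phosphofructokinases, where PFKL held the most with BAS, at 36.1 and 35.7%. Of 23 genes of mitochondrial electron transfer, oxygen sensing and PPAR signalling, 21 were detected, led by SDHA at 129.18 FPKM, SDHB at 109.45 FPKM, UQCRFS1 at 104.49 FPKM and UQCRC1 at 76.69 FPKM. PPARG was at 0.91 FPKM and SQOR at 0.17 FPKM.

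**Figure D4:**
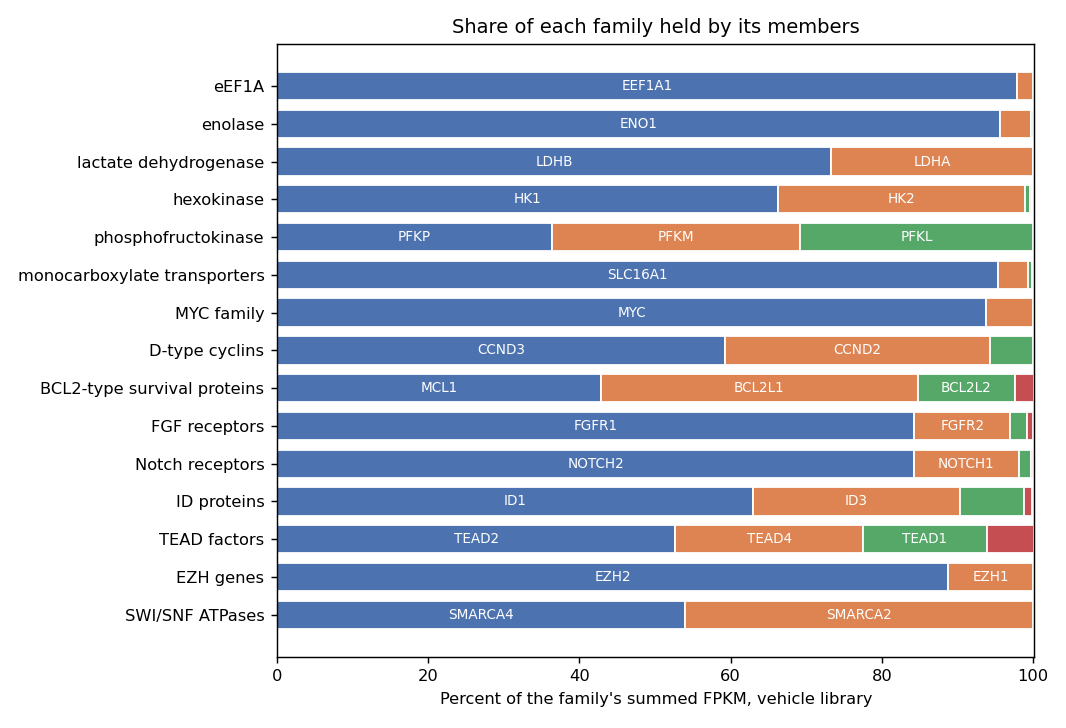
Percent of each family's summed FPKM in the vehicle library held by each member, as stacked bars for 15 families, with members of at least 9% named. EEF1A1, ENO1 and SLC16A1 each hold over 95%, and the phosphofructokinases and SWI/SNF ATPases are shared.

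Markers of other cell types were mostly low. Of 101 markers in 8 lists, 21 were detected, 42 were under 0.1 FPKM and 9 were at or above 10 FPKM. These 9 were COL1A2, COL3A1, COL1A1, THY1 and ACTA2, which fibroblasts express, with KRT15, NGFR, CDH5 and ABCA3. None of 12 club, goblet and ciliated cell markers was detected, and 2 of 12 alveolar markers were, ABCA3 at 18.78 FPKM and CAV1 at 1.92 FPKM. The surfactant gene SFTPC was at 0.22 FPKM. Of 17 endothelial and fibroblast markers, 9 were detected. CDH5, a cadherin of endothelial cells, was at 57.56 FPKM, while among other endothelial genes ENG was at 1.86 FPKM, TEK at 1.05 FPKM, VWF at 0.46 FPKM, and PECAM1, CLDN5 and TIE1 at 0.1, 0.08 and 0.03 FPKM. Of 14 blood and immune markers, CD68 was at 2.85 FPKM and PTPRC at 1.03 FPKM, and CD3G, CD79A, CD8A and HBA1 were listed at 0. Among liver and gut markers, FGG was at 4.27 FPKM and ALB at 0.04 FPKM. Among muscle and fat markers, FABP4 was at 8.16 FPKM and TNNT2 at 4.43 FPKM, and among glial and photoreceptor markers GFAP was at 2.78 FPKM and SAG at 1.62 FPKM. Among tuft cell genes, 1 of 9 was detected, LRMP at 29.87 FPKM.

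The base composition of promoters differed along the range of levels. Of 12758 symbols with a RefSeq promoter (GRCh38.p14, 250 bases before to 50 after the start), 74% had a CpG ratio of at least 0.6. The share was 39.2% for symbols under 0.1 FPKM, 49.4% from 0.1 to under 1, 80.7% from 1 to under 10, 89.5% from 10 to under 100, and 90.8% at or above 100 FPKM. The TATAAA motif, searched on both strands, was in 12.4% of promoters of the lowest group, 4.3% from 10 to under 100 FPKM and 8.7% at or above 100 FPKM. NEUROD1 and OAS1, at 104.96 and 926.48 FPKM, were thus both in the highest group while their CpG ratios were 0.901 and 0.074.

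**Figure D5:**
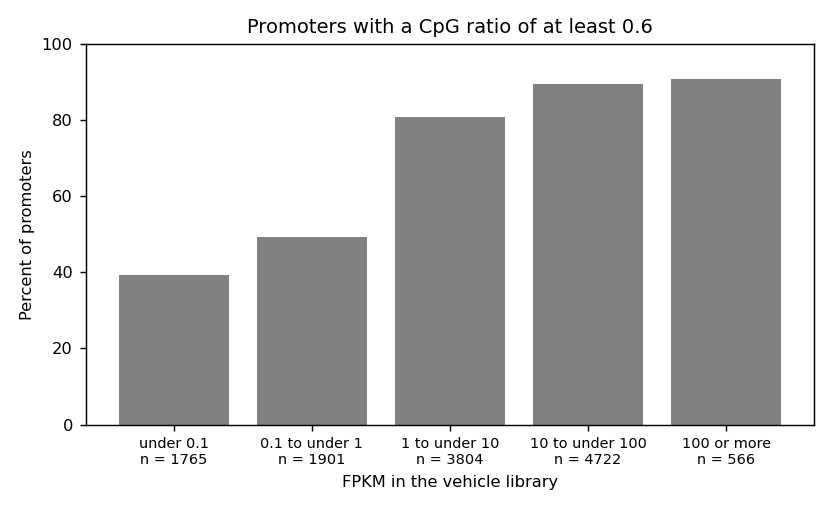
Percent of promoters with a CpG ratio of at least 0.6 in 5 groups of symbols by FPKM in the vehicle library, with the number of promoters under each bar. The bars go from 39.2% under 0.1 FPKM to 90.8% at or above 100 FPKM.

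The set of detected symbols was nearly the same in the treated libraries. Of the 11425 symbols detected in vehicle, 98.6% were detected at 5 µM and 98.4% at 10 µM, and 11199 were detected in all 3 libraries. Of the 100 highest symbols in vehicle, 93 were among the 100 highest at each dose. Of the 2571 symbols under 0.1 FPKM in vehicle, 11 were at or above 1 FPKM at 10 µM, and 3 at 5 µM. KRT14, a basal keratin, was at 0.04, 2.01 and 4.87 FPKM in the 3 libraries. The histone gene HIST1H4K was listed at 0 in vehicle and was at 8.31 and 4.23 FPKM with BAS, the highest of these symbols at 5 µM and the next after KRT14 at 10 µM. HIST1H4J, another histone H4 gene, went the other way, at 11.32 FPKM in vehicle and listed at 0 with BAS. Whether reads were divided differently between such related copies was not tested. LGALS3 (galectin-3) was at 0.05, 0.25 and 2.22 FPKM, and CALCB at 0.05, 0.69 and 1.5 FPKM. DGCR6, TRIM39-RPP21, TMEM191C, S100A9, LOC112268168 and HBA1 followed, all at or under 1.45 FPKM at 10 µM. HBA2, the relative of HBA1, was at 0.35 FPKM in vehicle and listed at 0 with BAS. In the other direction, 9 symbols detected in vehicle were under 0.1 FPKM at 10 µM, and 7 at 5 µM.

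Differences of the listed genes from the treated libraries are described for 439 of 701 listed symbols whose mean over the libraries was 1 FPKM or more. A gene counts as 2-fold apart where its log2(FPKM + 1) was 1 or more above or below vehicle, which understates differences of low genes. A gene low in vehicle can pass the filter through its treated values alone, which adds to the counts of higher genes. At 10 µM, 20 listed genes were 2-fold higher and 5 lower than in vehicle, or 4.56 and 1.14%, where over all 11512 symbols the shares were 1.31% and 0.643%. At 5 µM, 8 were higher and 2 lower, or 1.82 and 0.46%, where over all symbols the shares were 0.539% and 0.208%. Both comparisons share the vehicle library. The lists were chosen with earlier results of these data known, so the shares cannot show whether listed genes differ more often than other genes. At 10 µM, the epithelial list had 4 genes higher (KRT7, CLDN4, ESRP1 and KRT14) and 2 lower (KRT8 and KRT18) of the 10 past the filter. CLDN4, ESRP1 and KRT14 were at 0.58, 0.23 and 0.04 FPKM in vehicle and passed the filter only through their treated values. The count of higher genes in this list is thus partly set by the filter. KRT7 was at 5.74, 14.77 and 22.26 FPKM, and KRT8 at 4.81, 1.12 and 1.44 FPKM. Keratins of this list thus lay on both sides of vehicle. None of the 7 E protein and ID protein genes, the 10 MYC network genes or the 22 chromatin regulators was 2-fold apart at either dose.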

How the data were processed

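RNA of H446 cells was measured in 3 libraries, 1 per group, grouped by the treatment labels. Per the file headers the authors deposited FPKM, under titles that say RPKM (equal for single-end reads). The submitters' processing notes name hg19, Cufflinks, Cuffdiff, Bowtie2, BWA and Trim Galore. What each tool did, its version, the annotation and scaling across libraries were not given in the sources used here. Scaling to total mapped reads makes every value depend on the most abundant RNAs. Sums were 487923, 507342 and 492102 FPKM (vehicle, 5 µM, 10 µM). The 16795 rows gave 16793 symbols after summing 2 repeated ones; 22 look like dates and 39 are numbers alone. Depth is unknown.

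Levels were described at 1 and 0.1 FPKM. Treated libraries were compared as log2(FPKM + 1) with a 2-fold limit among symbols with a mean of at least 1 FPKM. Members and the 35 lists and 31 families were chosen with earlier results of these data known, and 10 lists were added after values were seen. Named genes are the 30 highest symbols, all members of the subtype, proneural, MYC and small family lists, the 4 highest and 2 lowest of the others, and the 10 highest treated symbols of those under 0.1 FPKM in vehicle. Other named genes, among them CHGA, SYP, UCHL1, NCAM1, DLL3, MET, EGFR, MX1 and ISG15, were chosen after their values were seen. Near-identity is the share of a gene's 50-base sequences found in another gene (GENCODE 29, at least 50%). RefSeq (GRCh38.p14) gave names for 98% of symbols, neighbour order and promoters, matched by symbol; no hg19 coordinates are given. Some genes that this rule names are not reported here. Steps were tested on simulated data. Alternatives were other limits, a TPM scale, a pseudocount of 0.1, no filter, a common total, a 1.5-fold limit, and leaving out ribosomal, near-identical or date-like symbols. Tools were pandas 2.3.3, numpy 2.4.6 and matplotlib 3.10.9 under Python 3.11.15.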

Additional observations from a re-analysis of the deposited data

How the results depend on the processing

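No paired analysis was possible because there is 1 library per group, and for the same reason no replicate could be left out. Of 216 alternative counts of symbols, 175 stayed within 1.5 times the count given or equalled it. The count of epithelial genes detected, 6 of 29, was 12 at a limit of 0.5 FPKM and on the TPM scale and 3 at 5 FPKM, where that of mesenchymal genes, 21 of 28, was 21, 21 and 16. The median level was 6.11 FPKM without symbols at 0 and 12.27 FPKM among detected symbols. The 100 highest symbols held 34.81% of the summed FPKM, 23.08% without ribosomal protein genes and 35.27% without near-identical genes. With a pseudocount of 0.1, 143 symbols were 2-fold higher and 53 lower at 5 µM, and 273 and 145 at 10 µM. With a 1.5-fold limit these counts were 346 and 184, and 695 and 396. Detection limits of 0.5 and 2 FPKM and a TPM scale kept the number of detected symbols within 1.5 times 11425. Unknown depth limits what can be said of symbols near 0.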
